A study of Mus musculus with 17 samples.

Results

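The genes described here are 10 genes of the G1 phase of the cell cycle: the D-type cyclins Ccnd1, Ccnd2 and Ccnd3, the E-type cyclins Ccne1 and Ccne2, the kinases Cdk2, Cdk4 and Cdk6, and the transcription factors E2f1 and E2f2. They were found by symbol, through their Entrez numbers, among the 24013 rows of a gene count table, and all 10 were present. The table held 17 RNA-seq libraries of sorted mouse testis cells. Their 4 groups all carried the Tert-Tomato/+ genotype on a B6/J X B6/N mixed background. From adult testis came GFRa1+ TERT-High Kit- cells (GFRA1pos, n = 4), GFRa1- TERT-High Kit- cells (GFRA1neg, n = 4) and TERT-High Kit+ cells (KITpos, n = 5), and from day 6 neonates came TERT+ OCT4-GFP+ gonocytes (P6gonocyte, n = 4). GFRa1 is a receptor subunit for the niche factor GDNF and Kit is the receptor for stem cell factor. Tomato and GFP are fluorescent reporters of Tert, which encodes the catalytic subunit of telomerase, and of OCT4. The labels give the GFP reporter in the titles of the neonatal libraries and list Tert-Tomato/+ as their genotype. They do not say whether libraries of a group came from separate animals, so p-values measure the spread between these libraries, which may be technical.

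In G1, mitogens raise D-type cyclins, which bind Cdk4 or Cdk6, and these complexes phosphorylate the retinoblastoma protein. The release of E2F factors then turns on the E-type cyclins and the genes of DNA synthesis, and cyclin E with Cdk2 completes the step into S phase. In the testis the stem cell pool of spermatogonia is kept up by GDNF, while Kit-positive differentiating spermatogonia divide in a timed series before meiosis.

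The promoters of the 3 kinases are shown because Cdk4, Cdk6 and Cdk2 had their lowest and highest levels in different groups, as given further on. Each sequence is the 250 bases upstream of the start site in the RefSeq promoter table of the GRCm38.p6 build, 5′ to 3′ on the strand of the gene, with motif matches in capitals. Cdk4 lies at chr10:127063285-127063534 on the plus strand, Cdk6 at chr5:3343643-3343892 on the plus strand and Cdk2 at chr10:128705052-128705301 on the minus strand.
Cdk4: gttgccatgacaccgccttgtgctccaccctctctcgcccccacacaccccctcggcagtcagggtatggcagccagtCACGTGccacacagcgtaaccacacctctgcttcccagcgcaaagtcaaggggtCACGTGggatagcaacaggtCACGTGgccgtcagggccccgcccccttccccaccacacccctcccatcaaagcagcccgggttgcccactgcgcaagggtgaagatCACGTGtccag
Cdk6: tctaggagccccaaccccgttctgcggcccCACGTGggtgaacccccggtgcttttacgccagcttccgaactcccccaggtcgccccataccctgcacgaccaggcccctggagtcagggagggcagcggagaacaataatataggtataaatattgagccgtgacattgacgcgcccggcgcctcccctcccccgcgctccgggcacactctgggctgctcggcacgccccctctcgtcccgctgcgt
Cdk2: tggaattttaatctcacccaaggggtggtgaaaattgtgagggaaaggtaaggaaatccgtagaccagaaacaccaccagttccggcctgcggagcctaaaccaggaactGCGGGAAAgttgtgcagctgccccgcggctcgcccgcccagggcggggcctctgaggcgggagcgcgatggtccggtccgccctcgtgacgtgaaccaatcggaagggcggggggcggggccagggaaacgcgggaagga
The motifs searched on both strands were CACGTG, an E-box spelling that reads the same on both strands and is bound by MYC and other factors of its class, and the E2F spellings TTTCCCGC, TTTCGCGC, TTTGCCGC and TTTGGCGC. The Cdk4 window held 4 copies of CACGTG, starting at -172, -118, -98 and -11 relative to the start. Of all 32851 promoters there, 6.02% held at least 1 copy, 0.429% held at least 2, and 7 promoters (0.0213%) held at least 4. The Cdk6 window held 1 copy of CACGTG, at -220. The Cdk2 window held 1 E2F spelling, at -140 on the minus strand, which stands in the printed sequence as GCGGGAAA, and 1.86% of promoters held an E2F spelling. Of the 10 genes 7 had entries in the table (9 start sites), and the windows listed for Ccnd3, Ccne1, E2f1 and E2f2 held none of these letters. Listed start sites can lie inside a gene, downstream of another start, as for Ccnd3 and E2f2. The window listed for E2f1 also lies inside its gene and overlaps its coding sequence, so sequence upstream of E2f1 was not searched. That absence therefore holds for the windows searched and not for all promoter sequence of these genes. These matches are a description of the sequence, not of binding.

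Total counts per library ran from 5178352 to 12641907, and 1 row with no matched symbol held between 9.62% and 29.9% of them. Counts of the 10 genes in single libraries ran from 16 (E2f2) to 4087 (Ccnd2). In the adult groups the sorted receptors followed the gates: Gfra1 averaged 390 CPM (counts after TMM scaling to one library size) in GFRA1pos and 22.8 in GFRA1neg, and Kit averaged 353 CPM in KITpos, 17.6 in GFRA1pos and 27.6 in GFRA1neg. P6gonocyte, whose titles name neither receptor, averaged 145 CPM of Gfra1 and 188 of Kit. The 4 germ cell markers and the 9 markers of undifferentiated spermatogonia were detected in every group. The undifferentiated markers summed to medians of 2800 CPM in GFRA1pos, 2510 in GFRA1neg, 1550 in P6gonocyte and 399 in KITpos. For 6 markers of differentiating spermatogonia the medians were 160, 184, 448 and 876 CPM in the same order. Transcripts of 8 spermatid markers summed to between 70.5 and 1830 CPM in GFRA1pos libraries, 381 to 1300 in KITpos, 380 to 1660 in GFRA1neg and 2.53 to 4.86 in P6gonocyte, where Prm1 was at 0. Of 10 Sertoli cell markers 9 were measured, and they summed to 47.6 to 149 CPM in P6gonocyte, 22.2 to 32.4 in GFRA1neg, 13.9 to 16.7 in GFRA1pos and 11.4 to 39.5 in KITpos, with P6gonocyte replicate 2 highest. Sums of 8 spermatocyte markers were 259 to 409 CPM in P6gonocyte, 296 to 922 in GFRA1pos, 539 to 1010 in KITpos and 614 to 1870 in GFRA1neg. Those of 7 Leydig cell markers were 21.8 to 98.9 CPM in KITpos, with replicate 1 highest, and 9.77 to 26.5 over the libraries of GFRA1pos, GFRA1neg and P6gonocyte, with Cyp11a1 and Lhcgr at 0 in P6gonocyte. Sertoli and spermatid sums of P6gonocyte thus lay apart from those of all adult libraries. Sertoli sums of GFRA1pos lay below those of GFRA1neg without overlap, and Leydig sums reached higher in KITpos than elsewhere. The part of these other cells in the results was not tested beyond the values given with each result.

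The 10 genes differed widely in how far they moved between groups. Mean levels spanned 7.66-fold for Ccne2, 7.32-fold for Ccnd2, 6.27-fold for E2f2, 4.59-fold for Cdk6 and 3.82-fold for Ccnd1 between the lowest and the highest group. The spans were 2.61-fold for Ccne1, 2.3-fold for Cdk4, 2.11-fold for Cdk2, 1.77-fold for E2f1 and 1.25-fold for Ccnd3. KITpos had the highest mean of Ccne1, Ccne2, Cdk2 and E2f2, and GFRA1pos that of Ccnd2, Ccnd3 and E2f1. P6gonocyte had the highest mean of Ccnd1 and Cdk4, and GFRA1neg that of Cdk6. Changes were called by edgeR's quasi-likelihood test at an adjusted p under 0.05 over 15451 genes, and all 10 genes were among those tested. The libraries are bulk samples, in which fewer cells of a type and less RNA per cell cannot be told apart.

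**Figure D1:**
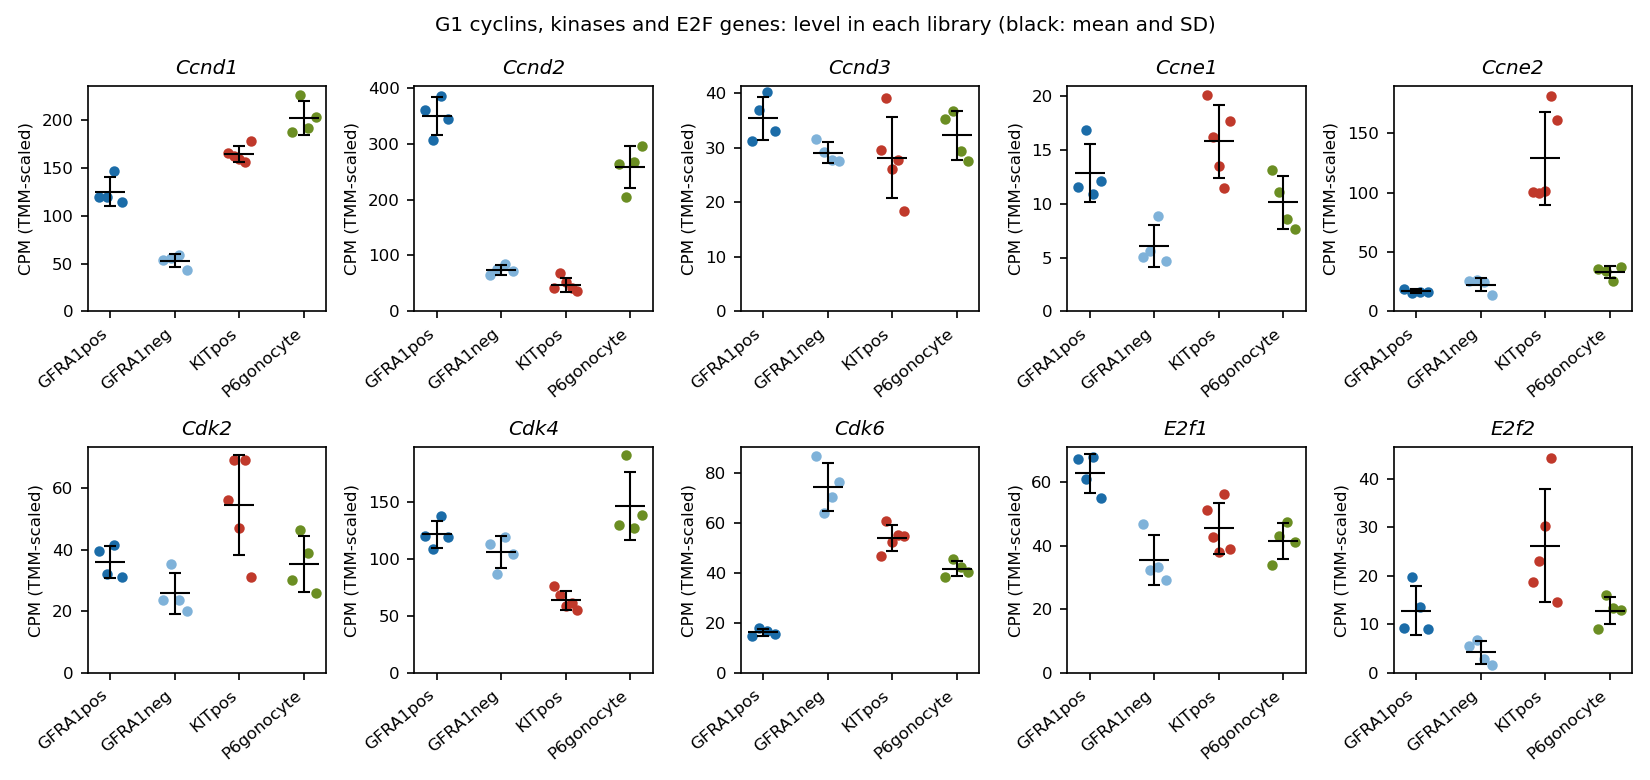
Level of each of the 10 genes in CPM (TMM-scaled library sizes, linear axis from 0) in every library of the 4 groups, with black bars for the group mean and SD. Ccne2 is high in the 5 KITpos libraries, Ccnd2 in GFRA1pos and P6gonocyte, and Cdk6 is lowest in GFRA1pos.

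In GFRA1pos against GFRA1neg, Ccnd1, Ccnd2, Ccne1, E2f1 and E2f2 were higher and Cdk6 was lower, that is 5 and 1 of 10 genes. Over all genes tested 7.3% were higher and 6.84% lower. In KITpos against GFRA1neg, 5 of the 10 genes were higher (Ccnd1, Ccne1, Ccne2, Cdk2 and E2f2) where 22.1% of all genes were, and 3 were lower (Ccnd2, Cdk4 and Cdk6) where 23% were. KITpos against GFRA1pos again gave 5 higher (Ccnd1, Ccne2, Cdk2, Cdk6 and E2f2) and 3 lower (Ccnd2, Cdk4 and E2f1), with 24.9% and 23.7% over all genes.

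P6gonocyte had 3 of the 10 genes higher than GFRA1pos (Ccnd1, Ccne2 and Cdk6; 17.3% over all genes) and 2 lower (Ccnd2 and E2f1; 21.9%). Against GFRA1neg it had 5 higher (Ccnd1, Ccnd2, Ccne1, Cdk4 and E2f2), with 18.8% over all genes, and 1 lower (Cdk6), with 24.9%. Against KITpos it had 3 higher (Ccnd1, Ccnd2 and Cdk4), with 21.8% over all genes, and 5 lower (Ccne1, Ccne2, Cdk2, Cdk6 and E2f2), with 27.3%. Without the 4 libraries highest in spermatid transcripts (GFRA1pos replicates 2 and 4, GFRA1neg replicate 2 and KITpos replicate 1) the totals called in the 6 comparisons, in the order given, were 5, 8, 6, 4, 8 and 7 in place of 6, 8, 8, 5, 6 and 8. The count of 8 in P6gonocyte minus KITpos fell to 5 without KITpos replicate 4, to 5 without P6gonocyte replicate 1 and to 4 without P6gonocyte replicate 4. The 6 comparisons share their groups, so their counts are not separate evidence. The median log2 fold change of the 10 genes was 0.65 in GFRA1pos against GFRA1neg, with -0.04 over all genes, and 0.72 in KITpos against GFRA1neg, with 0.03 over all genes. It was 0.35 in KITpos against GFRA1pos, where all genes had a median of 0.07. In P6gonocyte the medians were -0.01 against GFRA1pos, 0.51 against GFRA1neg and -0.25 against KITpos, with -0.05, -0.09 and -0.09 over all genes.

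**Figure D2:**
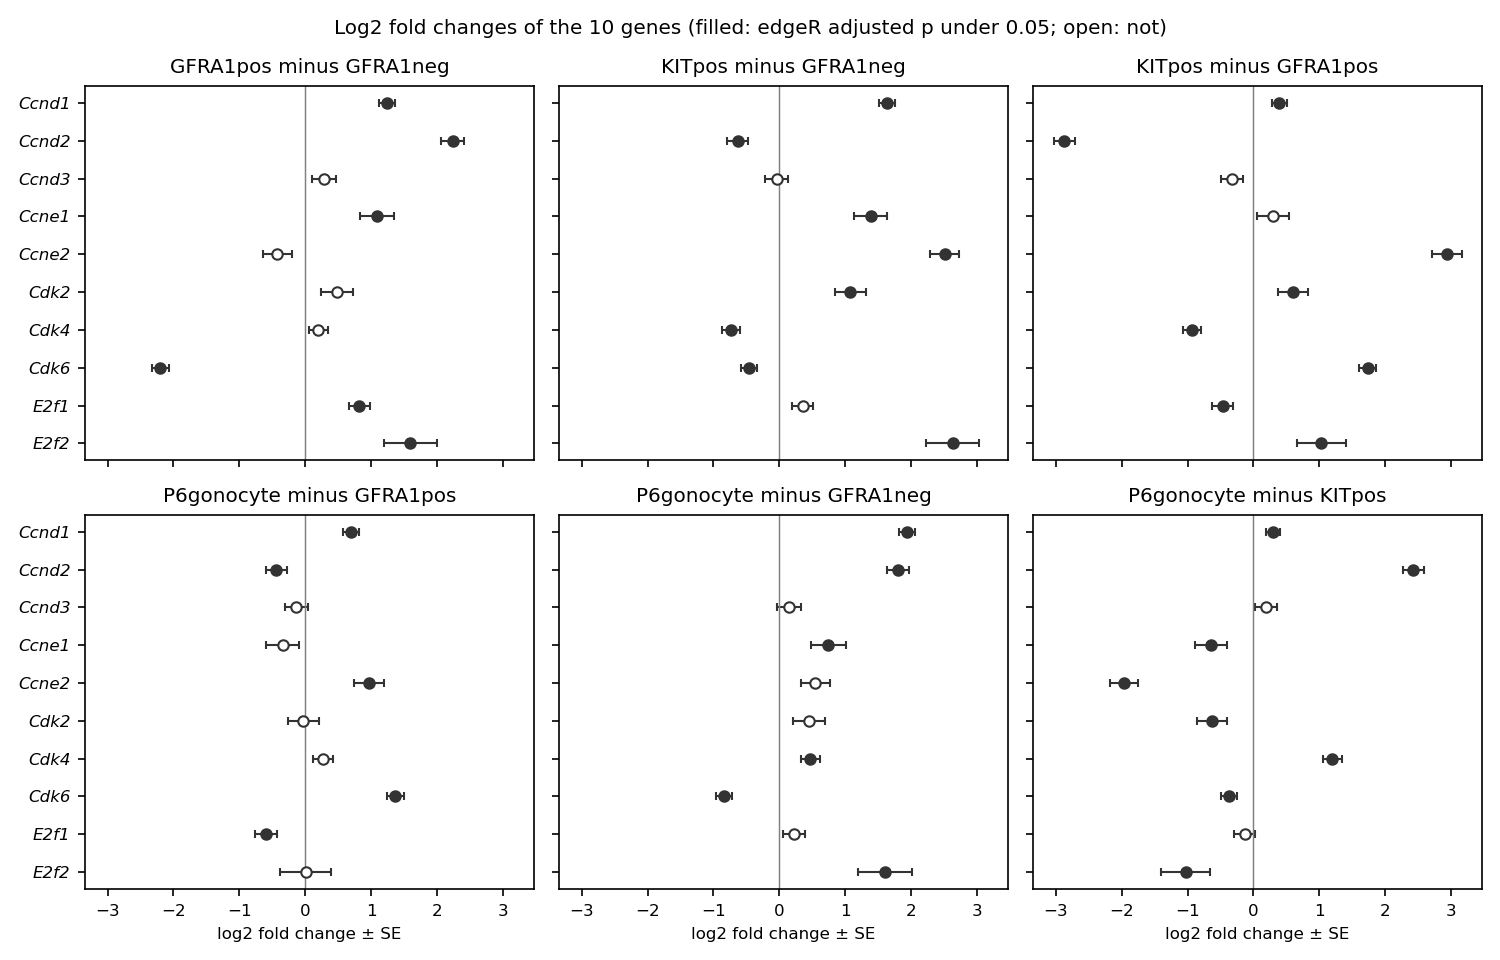
Log2 fold change and its standard error for the 10 genes in the 6 comparisons of groups, with filled points where the edgeR adjusted p is under 0.05 and open points elsewhere. Ccnd2 and Cdk6 lie on opposite sides of 0 in GFRA1pos minus GFRA1neg (2.24 and -2.20) and in KITpos minus GFRA1pos (-2.87 and 1.74).

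Among the D-type cyclins, Ccnd1 (Entrez 12443), the partner of Cdk4 and Cdk6 most widely induced by mitogens, had its lowest level in GFRA1neg. Its CPM was 120.2, 119.7, 147 and 114 in GFRA1pos replicates 1 to 4, 53.6, 56.3, 58.7 and 43.7 in GFRA1neg, 166, 163, 159.8, 156 and 178 in the 5 KITpos libraries, and 188, 227, 192 and 204 in P6gonocyte. No libraries of different groups overlapped, and the order from low to high was GFRA1neg, GFRA1pos, KITpos, P6gonocyte. GFRA1pos was 2.36-fold above GFRA1neg, a log2 fold change of 1.24 ± 0.12 (SE, adjusted p = 9.79e-07). KITpos was 1.63 ± 0.12 above GFRA1neg on that scale (adjusted p = 2.98e-09) and P6gonocyte 1.93 ± 0.12 (adjusted p = 5.86e-09). The steps from GFRA1pos to KITpos (0.40 ± 0.11, adjusted p = 0.00618) and from KITpos to P6gonocyte (0.30 ± 0.11, adjusted p = 0.0305) were smaller. P6gonocyte was 0.69 ± 0.12 above GFRA1pos (adjusted p = 0.000211). The call from KITpos to P6gonocyte was lost without KITpos replicate 3 (adjusted p = 0.0537), KITpos replicate 4 (0.0593), P6gonocyte replicate 2 (0.0891) or P6gonocyte replicate 4 (0.0585), and with no count filter (0.0557), while its log2 fold change stayed between 0.25 and 0.34 with any 1 library left out. P6gonocyte replicate 2 had both the highest Ccnd1 and the highest sum of Sertoli markers. Within its group this library was also highest in Ccnd3, Cdk2, Cdk4, Cdk6 and E2f2, but lowest in Ccnd2 (205 CPM). Without the 4 libraries highest in spermatid transcripts the step from GFRA1pos to KITpos was 0.27 (adjusted p = 0.172). LTO1 on the opposite strand shares 1100 of the 4709 exon bases of Ccnd1 and averaged 22 CPM in KITpos and 8.43 to 11.3 in the other groups. Whether the counting used strand is not given in the sources used here, so reads in shared bases cannot be told apart, here and for the genes below.

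Ccnd2 (Entrez 12444), the D-type cyclin best known from gonadal cells and induced downstream of GDNF in cultured spermatogonia, had a different order. GFRA1pos libraries had 361, 306, 386 and 345 CPM, P6gonocyte 263, 205, 268 and 295, GFRA1neg 64.4, 75.6, 85.4 and 71.4, and KITpos 41.3, 67.7, 51.9, 41.8 and 36. All GFRA1pos and P6gonocyte libraries lay above all GFRA1neg and KITpos libraries, and KITpos replicate 2 overlapped the GFRA1neg range. GFRA1pos was 4.71-fold above GFRA1neg (log2 2.24 ± 0.17, adjusted p = 1.01e-07) and 7.3-fold above KITpos (KITpos minus GFRA1pos -2.87 ± 0.17, adjusted p = 1.34e-10). P6gonocyte was 3.48-fold above GFRA1neg (log2 1.80 ± 0.17, adjusted p = 6.13e-07) and 5.39-fold above KITpos (log2 2.43 ± 0.16, adjusted p = 2.11e-09). KITpos was lower than GFRA1neg by a smaller step (-0.63 ± 0.16, adjusted p = 0.00314).

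The neighbours GFRA1pos and P6gonocyte differed less in Ccnd2, at -0.44 ± 0.17 in P6gonocyte minus GFRA1pos (adjusted p = 0.0425), although their libraries did not overlap. That call was lost without GFRA1pos replicate 1 (adjusted p = 0.0775), 3 (0.11) or 4 (0.0565) and without P6gonocyte replicate 1 (0.0767), 2 (0.134) or 3 (0.0689). It was also lost without the 4 libraries highest in spermatid transcripts (-0.50, adjusted p = 0.0822). An antisense transcript on the opposite strand, 9330179D12Rik, shares 368 exon bases with Ccnd2 in the GENCODE annotation and averaged 7.78 CPM in GFRA1pos, 3.27 in P6gonocyte, 1.68 in GFRA1neg and 1.23 in KITpos.

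Ccnd3 (Entrez 12445), the D-type cyclin known for roles in lymphocytes and in cells that leave the cycle, was called by edgeR in 0 of the 6 comparisons, and in 0 of them by DESeq2, by limma voom or at an unadjusted p under 0.05. Its CPM was 31.3, 37, 40.3 and 33 in GFRA1pos, 31.7, 29.3, 27.7 and 27.6 in GFRA1neg, 29.5, 39.1, 26.2, 27.8 and 18.4 in KITpos, and 35.3, 36.8, 29.4 and 27.6 in P6gonocyte. Libraries of every pair of groups overlapped. The largest difference was -0.32 ± 0.17 in KITpos minus GFRA1pos (adjusted p = 0.125), which passed without KITpos replicate 2 (-0.47, adjusted p = 0.019). Bysl on the opposite strand shares 361 of the 8775 exon bases of Ccnd3 and, at group means of 49.2 to 62 CPM, had more counts than Ccnd3 itself.

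Levels between genes were compared per kilobase, over the length of the longest coding transcript and over that of the coding sequence in GENCODE. Lengths of 3′ ends differ between genes and change such shares. Both divide all counts of a gene, so values per coding sequence include reads outside it and are raised for genes with long untranslated ends. In GFRA1pos Ccnd2 held the largest share of the D-type cyclin sum on both lengths, 52.4% ± 2.6 (SD, n = 4) per transcript and 68.9% ± 2.1 per coding sequence. In KITpos Ccnd1 held 68.1% ± 6.0 (SD, n = 5) and 68.4% ± 5.9, and Ccnd2 11.5% and 20%. In P6gonocyte the leading gene depended on the length used: Ccnd1 led per transcript (49.2%) and Ccnd2 per coding sequence (52.7%). In GFRA1neg Ccnd2 led per coding sequence (47.8%), while per transcript Ccnd1 (35.7%) and Ccnd3 (34.8%) were close, with Ccnd3 ahead in 2 of the 4 libraries. The Ccnd3 share was higher in GFRA1neg than in the other groups on both lengths (18.7% per coding sequence). The sum of the 3 genes per kilobase of transcript was 105 ± 9.6 in GFRA1pos and 110.0 ± 3.0 in P6gonocyte, against 39.7 ± 2.7 in GFRA1neg (SD, n = 4 each) and 64.9 ± 4.6 in KITpos (SD, n = 5). These shares are a description and were not tested.

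**Figure D3:**
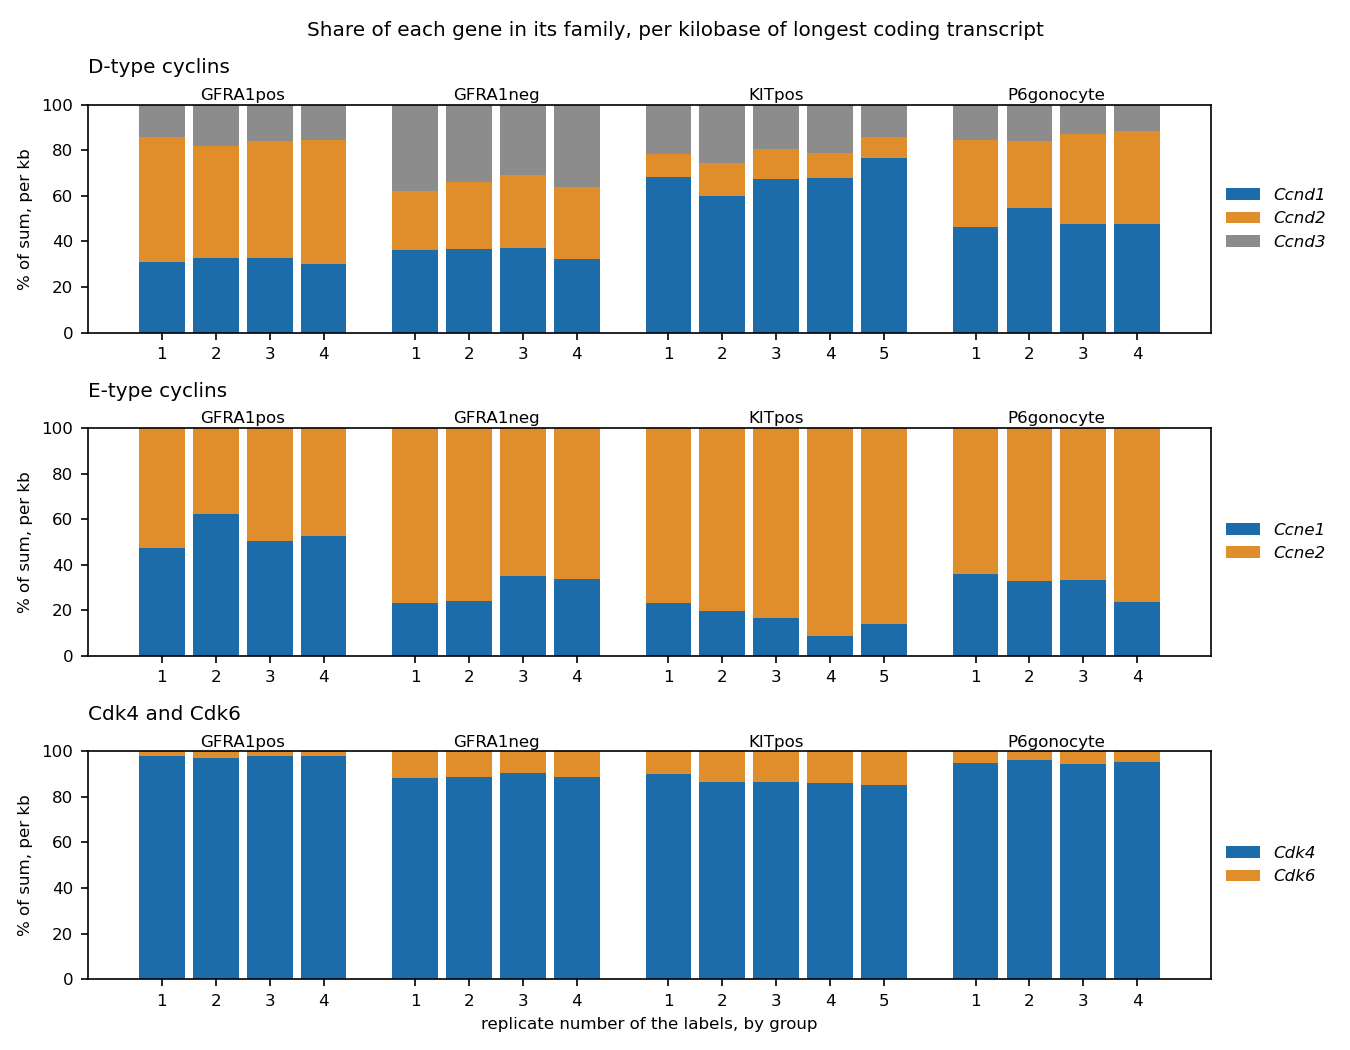
Share of each gene in its family in every library, in percent of the summed CPM per kilobase of the longest coding transcript, for the D-type cyclins, the E-type cyclins and the pair of Cdk4 and Cdk6. Ccnd2 averages 52.4% of the D-type sum in GFRA1pos and 11.5% in KITpos, and Cdk6 2.33% of the Cdk4 and Cdk6 sum in GFRA1pos and 13.2% in KITpos.

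Of the kinases that bind D-type cyclins, Cdk4 (Entrez 12567) had its lowest level in KITpos. Its CPM was 76, 68.8, 58.6, 61.2 and 55.1 in KITpos, 113, 87.3, 119.8 and 104 in GFRA1neg, 120.6, 109, 138 and 119.7 in GFRA1pos, and 129.8, 191, 127 and 139 in P6gonocyte. All KITpos libraries lay below all others, GFRA1pos overlapped both GFRA1neg and P6gonocyte, and P6gonocyte replicate 2 stood highest. KITpos minus GFRA1pos was -0.93 ± 0.14 on the log2 scale (adjusted p = 2.08e-05), KITpos minus GFRA1neg was -0.73 ± 0.14 (adjusted p = 0.000278), and P6gonocyte was 1.20 ± 0.14 above KITpos (adjusted p = 2.55e-06). The neighbours in the order did not differ past the threshold between GFRA1neg and GFRA1pos (0.20 ± 0.15, adjusted p = 0.425) or between GFRA1pos and P6gonocyte (0.27 ± 0.15, adjusted p = 0.153). P6gonocyte was above GFRA1neg (0.47 ± 0.15, adjusted p = 0.0146), a call lost without GFRA1neg replicate 2 (0.0556) or P6gonocyte replicate 2 (0.0721). That neonatal library also had the highest Sertoli marker sum. Tspan31 on the opposite strand shares 641 of the 3249 exon bases of Cdk4 and averaged 24.4 CPM in GFRA1pos, 21.8 in P6gonocyte, 16.6 in GFRA1neg and 7.02 in KITpos.

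Cdk6 (Entrez 12571), the second kinase for D-type cyclins, was lowest in GFRA1pos. GFRA1pos libraries had 14.7, 17.8, 16.8 and 15.4 CPM, P6gonocyte 38.5, 45.3, 42.3 and 40.1, KITpos 46.8, 60.8, 52.1, 55.1 and 54.6, and GFRA1neg 86.5, 63.7, 70.4 and 76.4. The 4 groups did not overlap anywhere in this order, and GFRA1pos stood well apart from the rest. It was 4.59-fold below GFRA1neg (-2.20 ± 0.13, adjusted p = 5.31e-09). KITpos was 1.74 ± 0.13 above GFRA1pos on the log2 scale (adjusted p = 3.25e-09) and P6gonocyte was 1.36 ± 0.13 above it (adjusted p = 2.04e-06). Below GFRA1neg, KITpos stood at -0.46 ± 0.12 (adjusted p = 0.00322) and P6gonocyte at -0.84 ± 0.13 (adjusted p = 5.44e-05). P6gonocyte was below KITpos by a smaller step (-0.37 ± 0.12, adjusted p = 0.0148), lost without P6gonocyte replicate 1 (adjusted p = 0.055).

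Per kilobase Cdk4 exceeded Cdk6 in every library on both lengths. The Cdk6 share of their sum per transcript was 2.33% ± 0.33 (SD, n = 4) in GFRA1pos, 4.89% ± 0.64 in P6gonocyte, 11.1% ± 1.1 in GFRA1neg and 13.2% ± 1.9 (SD, n = 5) in KITpos. Per coding sequence these shares were 11%, 21.1%, 39.4% and 44%. The 2 sets differ because the longest Cdk6 transcript has 11525 bases and its coding sequence 978.

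Ccne2 (Entrez 12448), an E-type cyclin that activates Cdk2, had the widest span of the 10 genes. KITpos libraries had 100.8, 99.7, 101, 182 and 161 CPM, P6gonocyte 35.3, 33.9, 25.9 and 37.2, GFRA1neg 25.4, 26.3, 24.7 and 13.8, and GFRA1pos 19.2, 15.4, 16.2 and 16.6. KITpos stood above all other libraries, with replicates 4 and 5 highest, and GFRA1neg overlapped GFRA1pos through its replicate 4 and P6gonocyte through its replicate 2. KITpos was 7.64-fold above GFRA1pos (log2 2.93 ± 0.23, adjusted p = 7.48e-09), 5.7-fold above GFRA1neg (log2 2.51 ± 0.22, adjusted p = 4.33e-08) and 3.9-fold above P6gonocyte (P6gonocyte minus KITpos -1.96 ± 0.22, adjusted p = 1.33e-06). P6gonocyte was 1.96-fold above GFRA1pos (log2 0.97 ± 0.22, adjusted p = 0.00231). GFRA1pos and GFRA1neg did not differ past the threshold (-0.42 ± 0.22, adjusted p = 0.241). P6gonocyte minus GFRA1neg was 0.55 ± 0.22 with an adjusted p of 0.0516. It passed without GFRA1neg replicate 2 (0.0462) or P6gonocyte replicate 3 (0.0348), with RLE scaling (0.0495), DESeq2 (0.0465), no count filter (0.0424) or only these groups fitted (0.0399), and without the 4 libraries highest in spermatid transcripts (0.71, adjusted p = 0.0325). Ints8 on the opposite strand shares 609 of the 3495 exon bases of Ccne2 and averaged 289 CPM in KITpos, 192 in P6gonocyte, 160.0 in GFRA1neg and 140.0 in GFRA1pos. Its part in the Ccne2 counts was not tested.

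Ccne1 (Entrez 12447), the other E-type cyclin, moved less. Its CPM was 5.08, 5.6, 8.9 and 4.64 in GFRA1neg, 13.2, 11.1, 8.59 and 7.7 in P6gonocyte, 11.5, 16.9, 10.9 and 12.2 in GFRA1pos, and 20.2, 16.2, 13.5, 11.4 and 17.7 in KITpos. GFRA1neg lay below GFRA1pos and KITpos without overlap, and P6gonocyte overlapped all 3 other groups. The log2 fold change against GFRA1neg was 1.09 ± 0.26 in GFRA1pos (adjusted p = 0.00752), 1.39 ± 0.25 in KITpos (adjusted p = 0.000174) and 0.75 ± 0.26 in P6gonocyte (adjusted p = 0.0269). P6gonocyte was lower than KITpos (-0.64 ± 0.25, adjusted p = 0.0375). GFRA1pos did not differ past the threshold from KITpos (0.30 ± 0.24 in KITpos minus GFRA1pos, adjusted p = 0.333) or from P6gonocyte (-0.34 ± 0.26 in P6gonocyte minus GFRA1pos, adjusted p = 0.3).

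Without the 4 libraries highest in spermatid transcripts Ccne1 in GFRA1pos minus GFRA1neg was 0.90 with an adjusted p of 0.114, and in P6gonocyte minus KITpos it was -0.48 (0.149). The Ccne1 call between P6gonocyte and GFRA1neg was lost without GFRA1neg replicate 1 (0.0732), 2 (0.0629) or 4 (0.0797) and without P6gonocyte replicate 1 (0.0998) or 2 (0.0588). The Ccne1 call between P6gonocyte and KITpos was lost without KITpos replicate 1 (0.094), 2 (0.0563) or 5 (0.0629), without P6gonocyte replicate 2 (0.0519), 3 (0.112) or 4 (0.126), and with only these groups fitted (0.0529). Per kilobase, Ccne2 exceeded Ccne1 on both lengths in the mean of KITpos (83.5% and 88.5% of their sum), GFRA1neg (71% and 78.7%) and P6gonocyte (68.5% and 76.7%). In GFRA1pos the leading gene depended on the length, with Ccne2 at 46.9% ± 6.4 (SD, n = 4) per transcript and 57.2% ± 6.4 per coding sequence.

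Cdk2 (Entrez 12566), the kinase of the E-type cyclins, was highest on average in KITpos, where its spread was also widest. KITpos libraries had 56.1, 69.1, 47.1, 69.2 and 31 CPM, GFRA1pos 39.5, 32.1, 41.6 and 31.1, P6gonocyte 30.1, 46.4, 38.8 and 25.8, and GFRA1neg 23.8, 35.5, 23.7 and 20.2. KITpos replicate 5 stood level with the lowest GFRA1pos library, and all groups overlapped. KITpos was 2.11-fold above GFRA1neg (log2 1.08 ± 0.23, adjusted p = 0.000776), the Cdk2 call that held with each library left out in turn. KITpos was also above GFRA1pos (0.60 ± 0.23, adjusted p = 0.0354) and above P6gonocyte (P6gonocyte minus KITpos -0.63 ± 0.23, adjusted p = 0.0289). Neither GFRA1pos minus GFRA1neg (0.48 ± 0.24, adjusted p = 0.208), P6gonocyte minus GFRA1neg (0.45 ± 0.24, adjusted p = 0.135) nor P6gonocyte minus GFRA1pos (-0.03 ± 0.24, adjusted p = 0.937) passed.

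The Cdk2 call between KITpos and GFRA1pos was lost without GFRA1pos replicate 2 (adjusted p = 0.0905) or 4 (0.0869), without KITpos replicate 1 (0.0555), 2 (0.0884) or 4 (0.0895), with RLE scaling (0.0549) and with DESeq2 (0.0528). Without the 4 libraries highest in spermatid transcripts Cdk2 stood at 0.38 there (adjusted p = 0.27), and P6gonocyte minus GFRA1neg passed at 0.72 (adjusted p = 0.0265). The latter also passed without GFRA1neg replicate 2 alone (0.65, adjusted p = 0.045). The Cdk2 call between P6gonocyte and KITpos was lost without KITpos replicate 2 (0.0734) or 4 (0.0737) and without P6gonocyte replicate 1 (0.0877) or 4 (0.109).

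E2f1 (Entrez 13555), an activating E2F factor released from the retinoblastoma protein, was highest in GFRA1pos. Its CPM was 67.2, 61, 67.7 and 54.8 in GFRA1pos, 46.8, 32.4, 33.4 and 29.2 in GFRA1neg, 51.1, 42.7, 38.1, 56.3 and 39 in KITpos, and 33.9, 42.9, 47.4 and 41.2 in P6gonocyte. GFRA1pos lay above GFRA1neg and P6gonocyte without overlap, and KITpos replicate 4 reached into the GFRA1pos range. GFRA1pos was 1.77-fold above GFRA1neg (log2 0.82 ± 0.17, adjusted p = 0.00208) and 1.51-fold above P6gonocyte (P6gonocyte minus GFRA1pos -0.60 ± 0.17, adjusted p = 0.00783). KITpos was below GFRA1pos (-0.47 ± 0.16, adjusted p = 0.0185), a call lost without GFRA1pos replicate 3 (adjusted p = 0.0532). The neighbours KITpos, P6gonocyte and GFRA1neg did not differ past the threshold, with 0.36 ± 0.16 in KITpos minus GFRA1neg (adjusted p = 0.0746), 0.22 ± 0.17 in P6gonocyte minus GFRA1neg (adjusted p = 0.291) and -0.13 ± 0.16 in P6gonocyte minus KITpos (adjusted p = 0.507). KITpos minus GFRA1neg passed without GFRA1neg replicate 1 (0.52, adjusted p = 0.0134) or KITpos replicate 3 (0.41, adjusted p = 0.0479).

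E2f2 (Entrez 242705), a related activating factor, had few counts and, in the 3 adult groups, the widest relative spread of the 10 genes. KITpos libraries had 18.8, 23.1, 30.4, 44.4 and 14.6 CPM, GFRA1pos 9.14, 19.7, 13.5 and 8.95, P6gonocyte 9.03, 16, 13.5 and 12.9, and GFRA1neg 5.55, 6.72, 2.89 and 1.58. GFRA1neg lay below all other libraries, and KITpos overlapped GFRA1pos and P6gonocyte through its lower libraries. KITpos was 6.19-fold above GFRA1neg (log2 2.63 ± 0.40, adjusted p = 2.75e-05), and GFRA1pos (1.60 ± 0.40, adjusted p = 0.0112) and P6gonocyte (1.60 ± 0.41, adjusted p = 0.00375) were both above it. KITpos was 1.03 ± 0.37 above GFRA1pos (adjusted p = 0.0271), and P6gonocyte minus KITpos was -1.03 ± 0.37 (adjusted p = 0.0288). P6gonocyte and GFRA1pos were 0.01 ± 0.39 apart (adjusted p = 0.992).

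Both E2f2 calls around KITpos were lost when single libraries were left out. The one against GFRA1pos was lost without GFRA1pos replicate 1 (adjusted p = 0.078), 3 (0.0506) or 4 (0.0777) and without KITpos replicate 3 (0.0519) or 4 (0.0938). The E2f2 call between P6gonocyte and KITpos was lost without KITpos replicate 3 (0.0547) or 4 (0.0965) and without P6gonocyte replicate 1 (0.0905), 3 (0.0575) or 4 (0.0612). Per kilobase, E2f1 exceeded E2f2 in every library on both lengths, and the E2f2 share of their sum was highest in KITpos, at 24.5% ± 6.9 (SD, n = 5) per transcript and 34.8% ± 8.5 per coding sequence.

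The genes that E2F factors turn on for S phase were read from a list of 20. It holds mostly replication licensing, nucleotide synthesis and replication fork genes, and also the transcription factor gene Mybl2. In GFRA1pos against GFRA1neg 17 were higher and 0 lower (7.3% and 6.84% over all genes), with a median log2 fold change of 0.67. Examples were Rrm2, a ribonucleotide reductase subunit (1.75 ± 0.21, adjusted p = 1.44e-05), the helicase subunit Mcm6 (0.86 ± 0.11, adjusted p = 2.19e-05) and the thymidylate synthase gene Tyms (1.07 ± 0.14, adjusted p = 4.23e-05). In KITpos against GFRA1neg 16 were higher and 1 lower (22.1% and 23% over all genes, median 0.93), with Pcna, the sliding clamp of DNA polymerase, at 342 CPM against 95.8 (log2 1.83 ± 0.14, adjusted p = 1.05e-08). The gene that was lower was Pola1, a DNA polymerase alpha subunit (-0.74 ± 0.26, adjusted p = 0.0266).

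Between KITpos and GFRA1pos the S phase genes split, with 8 higher, 4 lower (24.9% and 23.7% over all genes) and a median of 0.03. Pcna (1.15 ± 0.14), Orc1 (0.76 ± 0.12) and Cdc45 (0.75 ± 0.15) were among those higher in KITpos, and Mcm7 (-0.50 ± 0.13), Pola1 (-0.94 ± 0.26), Chaf1a (-0.38 ± 0.14) and Tk1 (-0.58 ± 0.24) were lower. P6gonocyte had 10 of the 20 higher than GFRA1pos and 0 lower (median 0.40), 18 higher than GFRA1neg and 0 lower (median 1.15), and 10 higher than KITpos and 1 lower (median 0.34). Over all genes 17.3%, 18.8% and 21.8% were higher and 21.9%, 24.9% and 27.3% lower in these 3 comparisons. Mcm4 had the smallest adjusted p of the list in all 3 comparisons of P6gonocyte, at 1.02 ± 0.12 against GFRA1pos, 1.70 ± 0.12 against GFRA1neg and 0.65 ± 0.11 against KITpos. The counts of 0 lower were also 0 with DESeq2, with limma voom and at an unadjusted p under 0.05. Without the 4 libraries highest in spermatid transcripts the counts higher were 17 in GFRA1pos against GFRA1neg, 17 in KITpos against GFRA1neg and 7 in P6gonocyte against GFRA1pos, and those in KITpos against GFRA1pos were 6 higher and 2 lower. The Pola1 call in KITpos against GFRA1neg was lost there. In GFRA1neg, Ccnd1, Ccne1, Cdk2, E2f1 and E2f2 also had their lowest means, while Cdk6 had its highest.

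**Figure D4:**
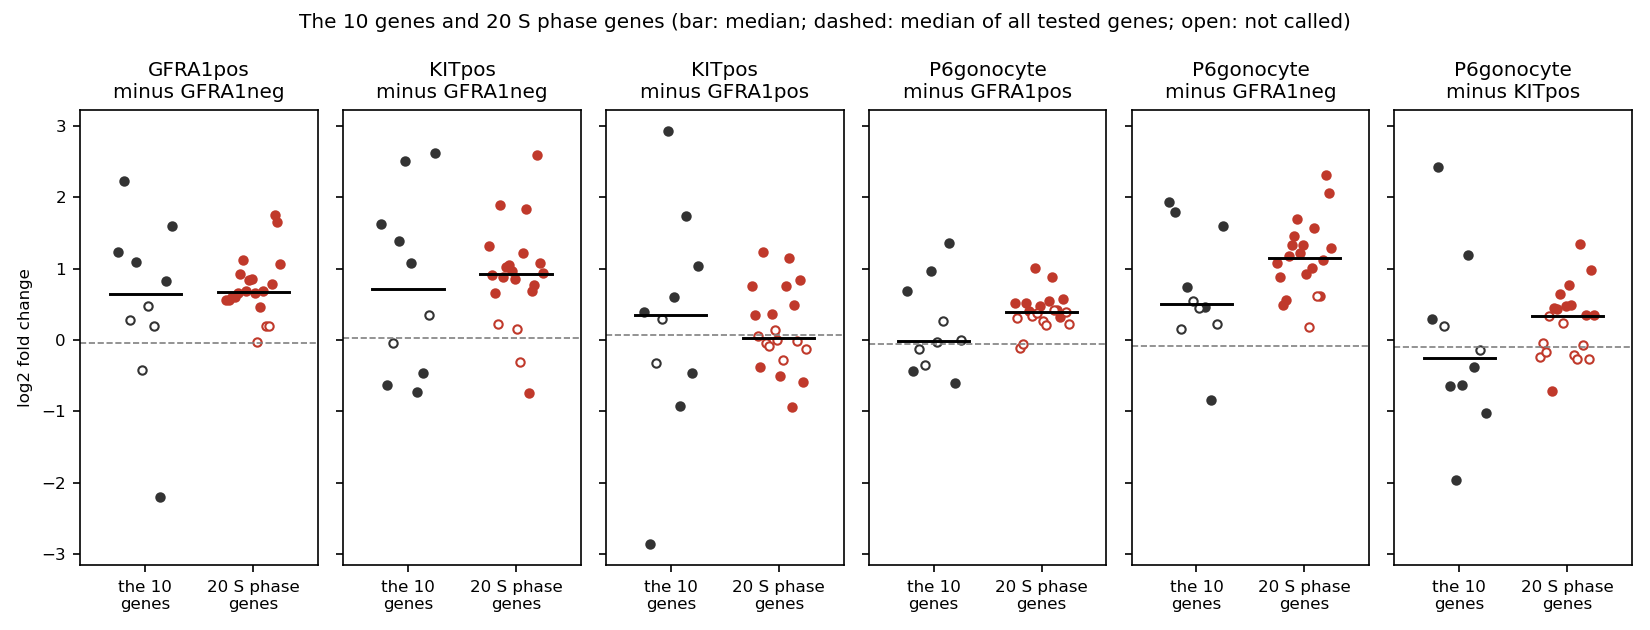
Log2 fold changes of the 10 genes and of 20 E2F target genes of S phase in the 6 comparisons, with a bar for the median of each list, a dashed line for the median of all tested genes and open points for genes that were not called. The S phase genes lie mostly above the dashed line in all comparisons against GFRA1neg and around it in KITpos minus GFRA1pos.

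Of the other 8 E2F and DP factors, the repressors E2f7 and E2f8, which are themselves switched on in S phase, were higher in GFRA1pos than in GFRA1neg (0.91 ± 0.15, adjusted p = 0.000297, and 1.79 ± 0.28, adjusted p = 0.000186) and none was lower. The shares over all genes were 7.3% higher and 6.84% lower. In KITpos against GFRA1neg E2f5, E2f7 and E2f8 were higher and E2f3 and E2f6 lower, and E2f6, a repressor that does not bind pocket proteins, averaged 42.4 CPM in KITpos against 94.6. KITpos had E2f5 higher than GFRA1pos (1.22 ± 0.15) and E2f3, E2f6 and Tfdp1 lower. In KITpos 22.1% of all genes were higher and 23% lower than in GFRA1neg, and 24.9% and 23.7% than in GFRA1pos. P6gonocyte had Tfdp1, E2f5 and E2f6 higher than GFRA1pos, and Tfdp1, E2f5, E2f7 and E2f8 higher than GFRA1neg, with none lower in either. Of all genes 17.3% were higher and 21.9% lower against GFRA1pos, and 18.8% and 24.9% against GFRA1neg. For this list the counts of 0 were the same with DESeq2, with limma voom and at an unadjusted p under 0.05, and without the 4 libraries highest in spermatid transcripts 1 of the 8 was higher in P6gonocyte than in GFRA1pos. Tfdp1, the DNA-binding partner of E2F factors, averaged 306 CPM in P6gonocyte, 215 in GFRA1pos, 170 in GFRA1neg and 162 in KITpos. Against KITpos, P6gonocyte had E2f6 and Tfdp1 higher and E2f4 and E2f5 lower, that is 2 and 2 of 8, where 21.8% and 27.3% of all genes were.

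Among 10 CDK inhibitors and pocket proteins, Cdkn1b, which encodes the p27 inhibitor of cyclin E with Cdk2, showed the widest range. It had 15.9 to 27.3 CPM in GFRA1neg libraries, 7.69 to 10.02 in GFRA1pos, 2.36 to 4.55 in P6gonocyte and 0 to 1.04 in KITpos, with no overlap between any groups. The log2 fold change was -5.71 ± 0.42 in KITpos minus GFRA1neg (adjusted p = 4.27e-09) and -4.37 ± 0.41 in KITpos minus GFRA1pos (adjusted p = 8.77e-08), on few counts in KITpos. Cdkn1c, the p57 inhibitor gene, was also lower in KITpos than in GFRA1neg (-2.18 ± 0.27, adjusted p = 3.13e-06) and in GFRA1pos (-2.42 ± 0.27, adjusted p = 7.85e-07). Of the 4 inhibitor genes for Cdk4 and Cdk6, Cdkn2b and Cdkn2d were not called in KITpos against either group. Cdkn2c, the p18 gene, was 2.00 ± 0.50 above GFRA1pos (adjusted p = 0.00268) and 1.53 ± 0.49 above GFRA1neg (adjusted p = 0.0149), and Cdkn2a was higher against both (1.24 ± 0.34 and 1.07 ± 0.34).

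With Rbl1, a pocket protein gene that was higher in KITpos than in both adult groups, the inhibitor list of 10 had 3 higher and 2 lower in KITpos minus GFRA1neg, close to the shares over all genes (22.1% and 23%). With Rb1 as well it had 4 higher and 2 lower in KITpos minus GFRA1pos (24.9% and 23.7% over all genes). In GFRA1pos against GFRA1neg Cdkn1a, the p21 gene, was higher (1.21 ± 0.30, adjusted p = 0.0104) and Rb1 (-0.91 ± 0.20, adjusted p = 0.00428) and Cdkn1b (-1.34 ± 0.34, adjusted p = 0.0101) were lower, with 7 not called. The shares over all genes there were 7.3% higher and 6.84% lower. P6gonocyte minus GFRA1pos had Rb1 higher, a call that limma voom did not make, and Cdkn1b and Cdkn2d lower. P6gonocyte minus GFRA1neg had Cdkn1b, Cdkn2c and Cdkn2d lower and 0 higher (1 higher with DESeq2 and at an unadjusted p under 0.05, 0 with limma voom). The count lower there was 2 with limma voom, and 2 without the 4 libraries highest in spermatid transcripts. P6gonocyte minus KITpos had Cdkn1b and Cdkn1c higher and Cdkn2a, Cdkn2c and Cdkn2d lower. Of all genes, 17.3% were higher and 21.9% lower in P6gonocyte than in GFRA1pos. These shares were 18.8% and 24.9% against GFRA1neg, and 21.8% and 27.3% against KITpos. Cdkn2d is also expressed in spermatocytes and spermatids, and spermatid transcripts were near 0 in P6gonocyte libraries. The part of those cells in the Cdkn2d difference was not tested. The 3 calls of the inhibitor list in GFRA1pos against GFRA1neg and the Rb1 call in P6gonocyte minus GFRA1pos were lost without the 4 libraries highest in spermatid transcripts, and there KITpos minus GFRA1pos had 1 higher and 2 lower.

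Of 6 genes that activate or fold the kinases, the phosphatase gene Cdc25a was higher in GFRA1pos (1.09 ± 0.14, adjusted p = 2.99e-05), KITpos (1.03 ± 0.14, adjusted p = 4.92e-06) and P6gonocyte (0.98 ± 0.14, adjusted p = 3.68e-05) than in GFRA1neg. Cdk7, the kinase of the CDK-activating complex, was higher with it in all 3, and Ccnh, its cyclin, in KITpos and P6gonocyte. With Hsp90ab1 and Mnat1, 5 of the 6 were higher in P6gonocyte than in GFRA1neg, where 18.8% of all genes were. P6gonocyte was above GFRA1pos in Hsp90ab1, Mnat1 and Ccnh and above KITpos in Hsp90ab1. KITpos was above GFRA1pos in Ccnh (0.70 ± 0.16) and Mnat1 (0.68 ± 0.20). None of the 6 was lower in any of these comparisons, by edgeR, DESeq2 or limma voom or at an unadjusted p under 0.05. Of all genes, 6.84% to 27.3% were lower and 7.3% to 24.9% higher, depending on the comparison.

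A list of 14 genes holds those that degrade cyclins and inhibitors and those that regulate this turnover, and Fbxw7, Fzr1 and Fbxo4 were called in none of the 6 comparisons. Fbxo5, an inhibitor of the anaphase-promoting complex and an E2F target, was the 1 gene of the list that edgeR called between GFRA1pos and GFRA1neg (1.23 ± 0.33, adjusted p = 0.0162). The 0 genes called lower there were 0 with DESeq2 and 3 with limma voom or at an unadjusted p under 0.05. Of all genes 7.3% were called higher there and 6.84% lower. In KITpos against GFRA1neg Fbxo5 (2.84 ± 0.33), Cks1b, Cul1 and Cks2 were higher. Usp28 (-1.50 ± 0.13), Ambra1 (-0.90 ± 0.13), Gsk3b, Fbxo31 and Skp2 were lower, so that 4 and 5 of 14 were called, where 22.1% and 23% of all genes were. Skp2 is the substrate receptor for p27, and Ambra1 that for D-type cyclins. KITpos against GFRA1pos gave Cul1, Cks1b, Fbxo5, Cks2 and Rbx1 as higher and Usp28, Ambra1, Skp2 and Gsk3b as lower. That is 5 and 4 of 14, where 24.9% and 23.7% of all genes were called. Ambra1 was also lower in P6gonocyte than in GFRA1pos (-0.60 ± 0.13, adjusted p = 0.00178) and GFRA1neg (-0.53 ± 0.13, adjusted p = 0.00378). P6gonocyte had 4 of the 14 higher and 2 lower against GFRA1pos, 5 and 3 against GFRA1neg and 4 and 1 against KITpos, beside 17.3% and 21.9%, 18.8% and 24.9%, and 21.8% and 27.3% of all genes. Those higher against GFRA1pos were Cul1, Cks1b, Rbx1 and Fbxo5, and the other gene that was lower was Cryab. That comparison had 2 higher and 1 lower without the 4 libraries highest in spermatid transcripts. Against GFRA1neg Cul1, Fbxo5, Cks1b, Skp2 and Cks2 were higher and Usp28 and Fbxo31 lower with Ambra1. Against KITpos Skp2, Usp28, Gsk3b and Ambra1 were higher and Fbxo5 lower, the last a call that limma voom did not make.

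Among 6 later cyclins and kinases, Ccna2, the cyclin of S phase and G2, had 101 CPM in GFRA1neg, 203 in GFRA1pos, 310.0 in KITpos and 324 in P6gonocyte. This is the order of means of Ccnd1, but for Ccna2 P6gonocyte and KITpos overlapped and did not differ past the threshold (0.07 ± 0.11, adjusted p = 0.643). GFRA1pos exceeded GFRA1neg in Ccna2, Ccnb1, Cdk1 and Ccnb2 and had less Ccnb3, a cyclin of early meiosis (-1.98 ± 0.40, adjusted p = 0.00191). KITpos exceeded GFRA1neg in Ccna2 (1.62 ± 0.12), Ccnb1 (1.06 ± 0.11) and Cdk1 (0.78 ± 0.16), and exceeded GFRA1pos in Ccna2 and Ccnb3 with less Ccnb2. P6gonocyte exceeded GFRA1pos in Ccna2 and Ccnb1, KITpos in Ccnb1 and Ccnb2, and GFRA1neg in Ccna2, Ccnb1, Cdk1 and Ccnb2. Ccna1, the cyclin of meiotic cells, averaged 0.89 CPM in P6gonocyte and was called lower there than in each adult group, where single libraries ran from 1.85 to 19.5 CPM. Spermatocyte marker sums had medians of 597 CPM in GFRA1pos, 720 in GFRA1neg and 700 in KITpos against 380 in P6gonocyte, those of spermatids 632, 536 and 625 against 3.01, and the part of these cells in the Ccna1 values was not tested. Ccnb3 was lower in P6gonocyte than in GFRA1neg (-1.26 ± 0.39, adjusted p = 0.0127). Of all genes, 7.3% were higher and 6.84% lower in GFRA1pos than in GFRA1neg. In KITpos these shares were 22.1% and 23% against GFRA1neg, and 24.9% and 23.7% against GFRA1pos. In P6gonocyte they were 17.3% and 21.9% against GFRA1pos, 18.8% and 24.9% against GFRA1neg, and 21.8% and 27.3% against KITpos.

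The list of 14 mitogen inputs to D-type cyclins holds the sorted receptors Gfra1 and Kit, on which the gates differed. Their own differences between adult groups were set by the sort, although they enter the counts below. In GFRA1pos against GFRA1neg 7 were higher (7.3% over all genes), among them Etv5 (3.67 ± 0.33, adjusted p = 4.07e-07) and Fos (2.78 ± 0.34, adjusted p = 1.99e-05), transcription factors induced by growth factor signals, and Ret, the signalling partner of GFRa1 (1.41 ± 0.23, adjusted p = 0.000284). The 1 lower gene was Mycn, of the MYC family (-1.06 ± 0.18, adjusted p = 0.00044). Without the 4 libraries highest in spermatid transcripts 5 were higher and 1 lower there. In KITpos 8 were lower than in GFRA1neg and 11 lower than in GFRA1pos, with 3 and 2 higher, where 23% and 23.7% of all genes were lower and 22.1% and 24.9% higher. Egr1, an early response gene, fell in both (-4.25 ± 0.18 and -4.69 ± 0.18), as did Ret (-4.50 ± 0.25 and -5.91 ± 0.26). The genes that were higher were Kit and Fgfr3 in both and Fos against GFRA1neg. Levels of Fos were low, with means of 2.99 CPM in KITpos, 1.35 in GFRA1neg and 9.34 in GFRA1pos. Mycn averaged 63.4 CPM in GFRA1neg, 46.7 in P6gonocyte, 30.4 in GFRA1pos and 19.3 in KITpos.

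P6gonocyte had 2 of these 14 genes higher than GFRA1pos, Kit (3.41 ± 0.28) and Mycn (0.62 ± 0.18), and 9 lower, including Egr1 (-1.32 ± 0.17) and Gfra1 (-1.43 ± 0.26). These counts were 1 and 6 without the 4 libraries highest in spermatid transcripts. Against GFRA1neg Kit, Gfra1, Etv5, Fos and Etv4 were higher and Egr1 lower. Against KITpos 9 were higher, among them Etv5 (4.96 ± 0.33), Gfra1 (4.93 ± 0.30), Ret (4.88 ± 0.25) and Egr1 (3.37 ± 0.17), and Fgfr3 and Kit were lower. Of all genes, 17.3% were higher and 21.9% lower in P6gonocyte than in GFRA1pos. These shares were 18.8% and 24.9% against GFRA1neg, and 21.8% and 27.3% against KITpos.

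Genes outside the 10 were ranked by how closely they followed each of them across the 17 libraries, by the root mean square difference of log2(CPM + 1) after each gene was centred on its own mean, over 12239 genes. A value of 0 would be an identical pattern. Ccnd1 was followed most closely by Ccna2 (0.178), Prim1 (0.215) and Slbp (0.257), with a root mean square of Ccnd1 itself of 0.726. Nearest to Cdk4 were Cdca4 (0.108), Rexo2 (0.13) and Pa2g4 (0.178), against 0.489 for Cdk4 itself. Ccnd2 had Mapk12 (0.244), Abr (0.288) and Mmp9 (0.306) nearest, against 1.23. For Ccne2 these were H2bfm (0.289), Nrip3 (0.299) and Rhox13 (0.334), against 1.17, and Rhox13 is among the markers of differentiating spermatogonia. Among the genes nearest to Cdk6, Anpep (0.345) and Eef2k (0.364) lay farther off, against 0.784. E2f2 had Plekha7 (0.361) and the S phase gene Rrm2 (0.459) nearest, against 1.01. The libraries share groups and depth, so these values describe the pattern over groups and carry no test.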

How the data were processed

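Sorted cells gave nanogram amounts of RNA, which the submitters amplified (NuGEN Ovation V2) and sequenced as paired-end TruSeq libraries on an Illumina HiSeq, per the labels' protocols. The deposited table holds raw whole-number counts per gene for 17 libraries. Per the submitters' processing notes, the tools were Trim Galore, TopHat2 2.0.4, Bowtie2 2.0.0-6, Bowtie, DESeq and DESeq2 with the mm9 build. The sources used here give neither their roles nor how reads were counted or whether strand was used. Groups follow the titles of the samples. A column spelled GFP in place of GFR was read as GFRA1pos replicate 1, the sole title left. The labels name no batch.

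Symbols were matched by Entrez number for 23930 of 24013 rows. Counts were tested by edgeR (version 4.0.16, R 4.3.3) with its quasi-likelihood F-test on all 17 libraries in 1 fit, TMM scaling, filterByExpr and Benjamini-Hochberg adjustment over 15451 genes at a threshold of 0.05. The common biological coefficient of variation was 0.30. The step was checked on simulated data. Values after ± are standard errors of log2 fold changes unless given as SD. Gene lengths and shared exons came from the GENCODE vM21 annotation. Figures were drawn with matplotlib 3.10.9. The 10 genes and all lists were chosen with earlier results of these data known. Genes named were the 10, up to 4 per list and comparison with the smallest adjusted p (every gene of a count of 5 or fewer), and up to 3 nearest in pattern, except a few that are not reported here. The alternatives tried were 2 further scalings (RLE, upper quartile), no filter on counts, DESeq2 1.42.0, limma 3.58.1 (voom), a fit of only the groups compared, a replicate block, and every library left out in turn. A fit without the 4 libraries with most spermatid transcripts was added after seeing the data. No replicate pair agreed within counting error.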

Additional observations from a re-analysis of the deposited data

Results flagged for a closer look

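The Ccne2 level of GFRA1neg replicate 4 stood apart from its group, at 13.8 CPM with 24.7 to 26.3 CPM in the other 3 libraries. The gap to its nearest neighbour was 0.873 of the range of the group. It was the 1 such library among 40 groups of values examined (10 genes in 4 groups), and chance flags about 1 in 20 groups.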

How the results depend on the processing

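limma voom kept the direction and call of all 60 fold changes (10 genes in 6 comparisons), and each of the other scalings, tools and fits of all libraries or of only the groups compared, the replicate block included, kept at least 57. The fit without the 4 libraries highest in spermatid transcripts kept 53. The number of the 10 genes called stayed within 1.5 times the reported one under every such setting, and with libraries left out in turn except for P6gonocyte minus KITpos (4 to 7, against 8). Uncalled fold changes near 0 changed sign. E2f2 in P6gonocyte minus GFRA1pos (0.006) became -0.018 with RLE scaling, -0.044 with upper-quartile scaling, -0.014 with no filter, -0.018 with DESeq2 and 0 with only those groups, and -0.154 to 0.291 with a library left out. Cdk2 there (-0.029) ran from -0.185 to 0.097 with a library left out, and Ccnd3 in KITpos minus GFRA1neg (-0.041) from -0.189 to 0.077. Without the 4 libraries highest in spermatid transcripts 1268 genes were called in GFRA1pos minus GFRA1neg (753 higher, 515 lower, against 2185) and 3971 in P6gonocyte minus GFRA1pos (1850 higher, 2121 lower, against 6060), with fewer libraries. The causes were not tested.

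The replicate numbers of the labels were not taken as pairing, since not every pair of same-numbered libraries correlated above 0.1 in its deviations. In GFRA1pos and GFRA1neg 3 of 4 pairs did (0.065 to 0.49, 3 of 4 best with their own number), and the block called 2584 genes there against 2185. Elsewhere the correlations ran from -0.419 to 0.206. With the replicate block 6, 8, 7, 5, 6 and 7 of the 10 genes were called in the 6 comparisons, in the order of their first mention. Ccnd3 in KITpos minus GFRA1neg became 0.065, and E2f1 in KITpos minus GFRA1pos (-0.41, adjusted p = 0.0555) and Ccne1 in P6gonocyte minus KITpos (-0.60, 0.0588) were not called. E2f2 had the fewest counts in a single library (16).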
